A study of Mus musculus with 3 samples.

Results

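The regions described here are the 73192 merged ATAC–seq regions on mouse chromosomes 6, 8 and 11, out of 219473 regions in the whole genome. They were obtained by merging overlapping peaks of the 3 deposited lists and keeping what lay on these chromosomes, which gave 27059 regions on chromosome 6, 22233 on chromosome 8 and 23900 on chromosome 11. The 16 other autosomes held 144115 regions and served as the main reference. Shares given for the whole genome or for all shared regions include the 3 chromosomes themselves. The 3 chromosomes were chosen by their number of peaks per Mb, which exceeded that of the rest in some of the lists. That excess is therefore given as a description, and the question was which of these regions resembled regulatory sites and which belonged to a surplus of weak calls.

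The study asked how the level of the transcription factor SOX2 shapes accessibility and the WNT response of caudal epiblast-like cells (CEpiLCs), a culture model of the progenitors that build the vertebrate trunk. All cells derived from the HM1 line of mouse embryonic stem cells (strain 129), were grown with feeder fibroblasts before differentiation and were collected at 72 h, having received 10 ng/ml bFGF and 5 µM LGK974, a blocker of WNT secretion, and for the final day the WNT pathway activator CHIR99021. CEpiLC was the wild-type sample. The paper names the XY line HM1 TetON as its wild-type control and as the source of all its lines. It places rtTA, the doxycycline-dependent transactivator, at Rosa26 before the Sox2 transgene was added. By that account CEpiLC carried rtTA as well. SOX2-ON and SOX2-OFF came from a clonal line, Sox2-/- at its own alleles, with a doxycycline-inducible Sox2 transgene at the HPRT locus and the rtTA transactivator at Rosa26. Its stem cells were kept in doxycycline at 1 µg/ml, which was continued during differentiation in SOX2-ON and withdrawn in SOX2-OFF. Each group had 1 sample of 50000 cells. No difference could therefore be set against a spread between replicates, no p-value was calculated, and every interval below is a 95% interval for counting error only.

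ATAC–seq records where a transposase can insert into DNA. Its strongest sites in most cells are promoters of active genes, active enhancers and sites bound by CTCF, the factor that anchors chromatin loops. Promoters in mammals are often rich in CG dinucleotides, which are scarce in the rest of the genome, and enhancers carry the short motifs of the factors that bind them. A broad peak is called wherever reads pile up beyond a local background, so it can mark a regulatory site or a stretch of chromatin only slightly above that background. Mouse embryonic stem cells are known to gain or lose whole chromosomes in culture. Beyond the paper's description of the parent line as XY, the karyotypes of these cells were not given in the sources used here. A change in chromosome number was not tested.

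To show what the kinds of region looked like, the central 200 bases are printed for the strongest region, by −log10 p, of the class covered by all lists and of the most over-represented class on each chromosome. They come from the plus strand of GRCm38.p6 (mm10), and capitals mark CG dinucleotides.
chromosome 6, all 3 lists, chr6:113076766-113076965: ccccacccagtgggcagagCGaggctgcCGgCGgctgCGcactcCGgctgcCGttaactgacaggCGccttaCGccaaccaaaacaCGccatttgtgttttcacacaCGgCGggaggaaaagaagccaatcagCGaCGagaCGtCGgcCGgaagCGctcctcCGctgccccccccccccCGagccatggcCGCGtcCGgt
chromosome 6, SOX2-ON and SOX2-OFF, chr6:134951365-134951564: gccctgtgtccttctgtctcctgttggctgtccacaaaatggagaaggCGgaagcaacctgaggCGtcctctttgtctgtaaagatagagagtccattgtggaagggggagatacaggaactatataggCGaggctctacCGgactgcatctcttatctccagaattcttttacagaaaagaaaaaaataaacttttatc
chromosome 8, all 3 lists, chr8:19784557-19784756: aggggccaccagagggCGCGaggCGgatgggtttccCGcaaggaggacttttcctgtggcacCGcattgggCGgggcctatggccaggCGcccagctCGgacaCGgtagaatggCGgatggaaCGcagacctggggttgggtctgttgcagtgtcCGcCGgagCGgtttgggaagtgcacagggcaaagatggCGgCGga
chromosome 8, SOX2-ON and SOX2-OFF, chr8:100887486-100887685: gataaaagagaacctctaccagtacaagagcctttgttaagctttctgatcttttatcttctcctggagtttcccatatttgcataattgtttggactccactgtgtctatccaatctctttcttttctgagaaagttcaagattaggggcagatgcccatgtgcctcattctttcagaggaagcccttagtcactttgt
chromosome 11, all 3 lists, chr11:69632883-69633082: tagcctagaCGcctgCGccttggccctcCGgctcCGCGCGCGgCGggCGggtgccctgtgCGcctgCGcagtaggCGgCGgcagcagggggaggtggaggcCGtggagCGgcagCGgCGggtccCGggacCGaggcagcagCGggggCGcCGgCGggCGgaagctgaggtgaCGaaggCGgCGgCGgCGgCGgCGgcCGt
chromosome 11, CEpiLC only, chr11:60638207-60638406: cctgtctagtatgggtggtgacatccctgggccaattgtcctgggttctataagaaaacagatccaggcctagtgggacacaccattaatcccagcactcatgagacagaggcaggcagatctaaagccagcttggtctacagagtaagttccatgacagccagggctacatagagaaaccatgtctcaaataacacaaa

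The regions covered by all lists held 22, 16 and 32 CG dinucleotides in these windows and were 67.5%, 66.0% and 80.5% G or C. Those covered by the engineered line only held 4 on chromosome 6 and none on chromosome 8, at 45.0% and 40.5% G or C. The CEpiLC-only window on chromosome 11 held none at 48.0%. The class medians, given below, differed in the same direction but by much less, so these strongest regions are not typical of their classes.

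The class of a region was set by the lists that covered it. On chromosome 6, 4605 regions (17.0%, interval 16.6 to 17.5) were covered by all 3 lists, against 27% of regions in the whole genome. A further 7525 (27.8%, 27.3 to 28.3) belonged to the engineered-line class, present in SOX2-ON and in SOX2-OFF and missing from CEpiLC, against 10.5% genome wide. SOX2-ON alone covered 6114 (22.6%, with 16.9% genome wide) and SOX2-OFF alone 7412 (27.4%, with 15.1% genome wide), whereas CEpiLC alone covered 663 (2.45%, with 20.3% genome wide). SOX2-OFF and CEpiLC shared 489 regions (1.81%, with 6.92% genome wide), and SOX2-ON and CEpiLC shared 251 (0.928%, with 3.28% genome wide).

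Chromosome 8 had almost the same make-up. The engineered-line class held 5675 of its regions (25.5%, 25 to 26.1), all lists covered 4226 (19.0%), and CEpiLC alone covered 665 (2.99%). Chromosome 11 was the mirror image, with 14311 regions covered by CEpiLC alone (59.9%, 59.3 to 60.5) and 255 in the engineered-line class (1.07%). Its share covered by all lists, 19.4%, was similar to that of chromosome 8. On the 16 other autosomes the engineered-line class ranged from 5.30% to 7.61%, CEpiLC alone from 18.1% to 23.3% and all 3 lists from 28.0% to 35.3%.

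**Figure D1:**
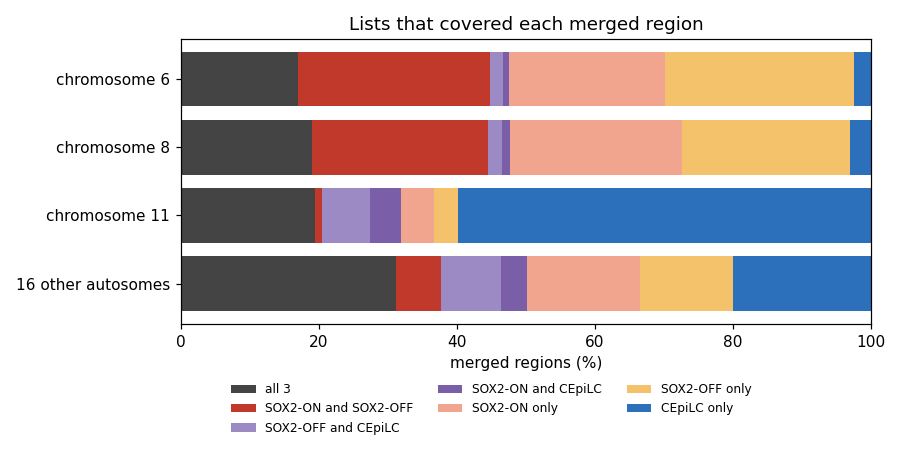
Share of merged regions (%) by the lists that covered them, for chromosomes 6, 8 and 11 and for the 16 other autosomes pooled, with each bar adding up to all regions of its place. Regions of the engineered line only (red) made up 27.8% on chromosome 6 and 25.5% on chromosome 8, and CEpiLC-only regions (blue) 59.9% on chromosome 11.

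As regions per Mb of sequenced chromosome, SOX2-ON covered 126 on chromosome 6 and 125 on chromosome 8, which is 3.04 and 3.01 times its median over the 16 other autosomes. SOX2-OFF covered 3.26 and 2.99 times its median, and CEpiLC 0.911 and 0.990 times. On chromosome 11 CEpiLC covered 183 per Mb, 4.05 times its median, whereas SOX2-ON and SOX2-OFF covered 1.44 and 1.48 times theirs. The densest of the 16 other autosomes reached 1.2, 1.19 and 1.34 times the median in the 3 lists. Chromosome 11 is rich in genes, and within gene-poor bins its engineered-line values lay nearer to the rest.

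The surplus depended on the distance to genes. Within 1 kb of a coding start, where promoters lie, SOX2-ON had 1.27 times the median number of regions per coding gene on both chromosome 6 and chromosome 8, with intervals of 1.20 to 1.35 and 1.19 to 1.35. SOX2-OFF had 1.30 and 1.24 times, and CEpiLC on chromosome 11 had 1.25 times (1.19 to 1.31). Among the 16 other autosomes the corresponding ratios reached at most 1.15 in any list.

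Between 1 and 10 kb from a start the ratios, now per Mb of sequence at that distance, were 2.42 and 2.44 in SOX2-ON and 2.48 in CEpiLC on chromosome 11. Between 10 and 100 kb they were 3.17, 3.30 and 3.87. Beyond 100 kb they reached 5.59 (5.44 to 5.75) on chromosome 6 and 5.47 (5.32 to 5.63) on chromosome 8 in SOX2-ON, 6.46 and 5.70 in SOX2-OFF, and 9.54 (9.29 to 9.80) on chromosome 11 in CEpiLC. The furthest any of the other autosomes reached at that distance was 1.48. From 1 kb outwards, per Mb of sequence, the surplus was larger the further from genes. The ratio within 1 kb was per coding gene and is not on the same scale.

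The surplus was also one of weak calls. The −log10 q of a peak is the authors' measure of how far its reads exceed the local background. For SOX2-ON peaks with a value below 2, the density was 5.33 times the median on chromosome 6 and 5.18 times on chromosome 8. At 3 to 5 the ratios were 2.24 and 2.17, at 10 to 20 they were 1.5 and 1.45, and at 50 or more 1.09 (1.02 to 1.17) and 1.34 (1.25 to 1.43), within the range of 0.749 to 1.43 seen among the other autosomes. SOX2-OFF followed the same course, from 5.06 and 4.65 to 1.14 and 1.41.

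CEpiLC on chromosome 11 differed at the strong end. Its ratio declined from 4.80 below 2 to 1.95 at 10 to 20, but at 50 or more it was 3.80 (3.34 to 4.31), from 246 peaks. In the engineered line the gene-rich chromosome 11 also had more peaks of this strength than the median, with ratios of 1.68 (SOX2-ON) and 1.66 (SOX2-OFF). Values of −log10 q grow with the number of reads over a site, and the pileup at shared promoters of chromosome 11 was higher in CEpiLC. The part of this in the ratio was not tested.

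**Figure D2:**
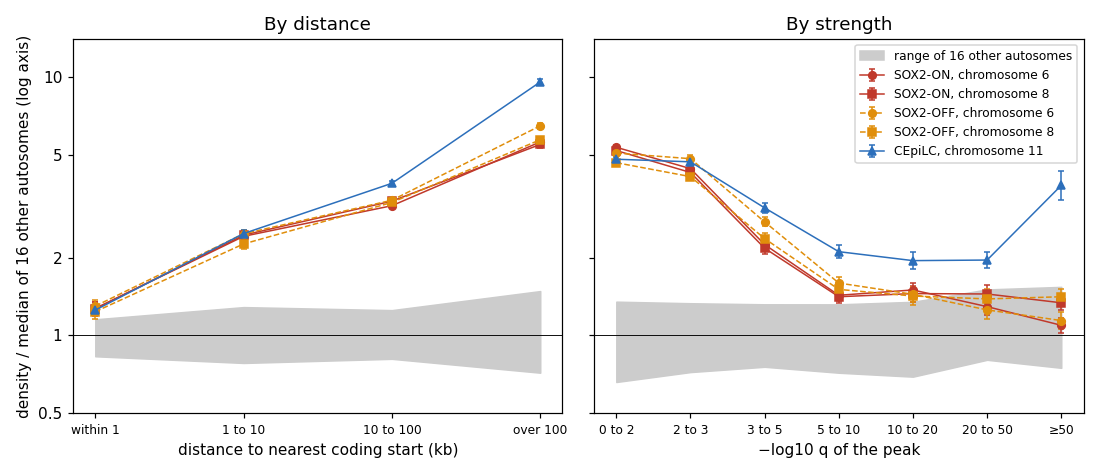
Density of regions by distance from a coding start (left, kb) and of peaks by −log10 q (right), each divided by the median of the 16 other autosomes, on a log axis with 95% counting intervals as bars and the range of the other autosomes in grey. Ratios were between 1.24 and 1.30 within 1 kb, counted per coding gene, and between 5.47 and 9.54 beyond 100 kb, counted per Mb. In the engineered line they shrank towards 1 with strength.

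Splitting the classes by strength set apart strong SOX2-ON-only regions, whose density on chromosomes 6 and 8 was near that elsewhere. SOX2-ON-only regions with a −log10 q of 5 or more numbered 363 on chromosome 6 and 331 on chromosome 8. That was 2.48 and 2.64 per Mb, or 0.919 (0.827 to 1.02) and 0.976 (0.874 to 1.09) times the median of 2.70 per Mb. The weakest SOX2-ON-only regions, under 2, were by contrast 5.11 and 5.43 times as dense as the median. Strong SOX2-OFF-only regions, 93 and 74 in number, were in surplus, at 1.84 (1.49 to 2.26) and 1.71 (1.34 to 2.15) times the median. On chromosome 11 strong SOX2-ON-only regions numbered 199, at 0.621 (0.538 to 0.714) times the median. Any overlapping peak of another list, even a weak one, takes a SOX2-ON region out of this class. A density near the median therefore does not show that strong SOX2-ON regions were free of the surplus.

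The engineered-line regions kept part of their surplus when strong. Under 2 their density was 17.1 times the median on chromosome 6 and 15.9 times on chromosome 8, and at 5 or more it was still 4.46 (4.21 to 4.73) and 3.92 (3.66 to 4.19) times. These strong regions numbered 1126 and 849. On chromosome 11 the same class was sparse at every strength, with 54 strong regions, 0.264 times the median. CEpiLC-only regions of chromosome 11 were in surplus at every strength, at 7.45 times under 2, 12.8 times from 2 to 5 and 8.23 times (6.71 to 9.99) at 5 or more, where they numbered 102. On chromosomes 6 and 8 only 3 and 7 CEpiLC-only regions reached 5.

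Regions covered by all lists departed less from the rest than the engineered-line class did. At 5 or more, chromosomes 6, 8 and 11 held 2949, 2715 and 3288 of them, with densities at 1.22, 1.31 and 1.68 times the median (16.5 per Mb). Single other autosomes had 12.8 to 21 per Mb. Chromosome 6, at 20.2 per Mb, lay inside that range, and chromosomes 8 and 11, at 21.6 and 27.7 per Mb, lay above it. On chromosome 8 a single 1 Mb bin, from 20 Mb, held 108 regions covered by all lists, of any strength.

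**Figure D3:**
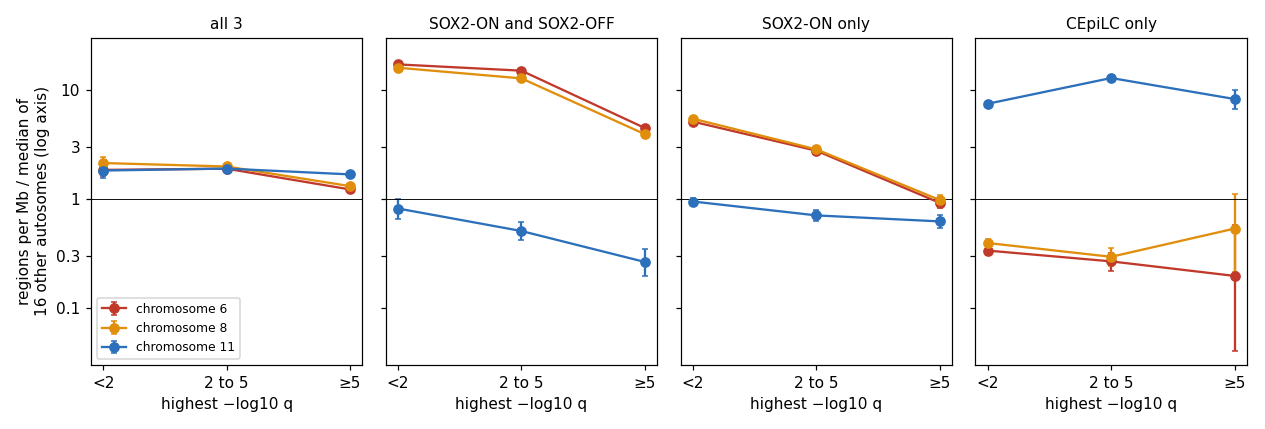
Regions per Mb in 4 coverage classes by their highest −log10 q, divided by the median of the 16 other autosomes, on a log axis with 95% counting intervals as bars. Strong SOX2-ON-only regions of chromosomes 6 and 8 lay at 0.919 and 0.976, whereas weak regions of the engineered line lay at up to 17.1 and CEpiLC-only regions of chromosome 11 between 7.45 and 12.8.

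Regions of the engineered-line class and CEpiLC-only regions of chromosome 11 were wider than elsewhere. The engineered-line class had a median width of 1031 bp on chromosome 6 and 1005 bp on chromosome 8, against 742.5 bp on the other autosomes, and yet its median −log10 q was 2.45 and 2.42 against 3.69. CEpiLC-only regions of chromosome 11 had a median width of 434 bp against 303 bp. SOX2-ON-only regions, also in surplus when weak, had pooled medians near those elsewhere, 360 and 373 bp on chromosomes 6 and 8 against 370 bp. In each band of strength they were wider, with 332 and 345.5 bp against 297 bp at a −log10 q under 2. From 2 to 5 they had 386 and 391 bp against 356 bp, and at 5 or more 725 and 711 bp against 644.5 bp. SOX2-OFF-only regions were wider as well, at 476 and 450 bp against 390 bp. Regions covered by all lists were also wider here, with medians of 1546, 1530 and 1435 bp against 1351 bp. Broad calling joins neighbouring enriched stretches, so width partly counts how many lay close together.

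As a ratio, the surplus was largest in bins where genes are scarce. Bins counted the peaks of each list, not merged regions. In 1 Mb bins with 0 or 1 coding starts, SOX2-ON had on average 71.8 peaks per bin on chromosome 6 (35 bins, from 25 to 180). On chromosome 8 it had 71.9 (34 bins, from 15 to 196), and on the other autosomes 14.3 (492 bins). Relative to these, chromosomes 6 and 8 had 5.03 times (4.84 to 5.23) and 5.04 times (4.84 to 5.24). SOX2-OFF gave 6.14 and 5.68 times, and CEpiLC gave 0.805 and 0.847 times in the same bins. CEpiLC on chromosome 11 had 138 peaks per gene-poor bin (18 bins, from 88 to 196) against 13.2, or 10.4 times (10.0 to 10.8). SOX2-ON and SOX2-OFF gave 0.907 and 0.877 times there.

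In bins with 15 or more coding starts the ratios narrowed to 2.01 and 2.11 for SOX2-ON, 2.06 and 1.99 for SOX2-OFF and 2.10 for CEpiLC on chromosome 11. As a count of extra peaks the order was not the same, since SOX2-ON on chromosome 6 had 71.8 per gene-poor bin against 14.3, but 153 against 52.3 in bins of 6 to 14 starts. The lowest bin of chromosome 11 still held 88 CEpiLC peaks. Across its 119 bins the counts had a coefficient of variation of 0.165, against 0.821 over the other autosomes. CEpiLC peaks thus varied less between bins of chromosome 11, although the mean still went from 138 in gene-poor to 196 in gene-rich bins. For peaks with a −log10 q of at least 5 the means were 6.56 and 38.2 per bin, against 2.34 and 26.4 on the other autosomes, so the narrow spread was one of weak calls. On chromosome 6 the coefficient was 0.418 in SOX2-ON and 0.803 in CEpiLC, and on chromosome 8 it was 0.435 and 0.886.

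**Figure D4:**
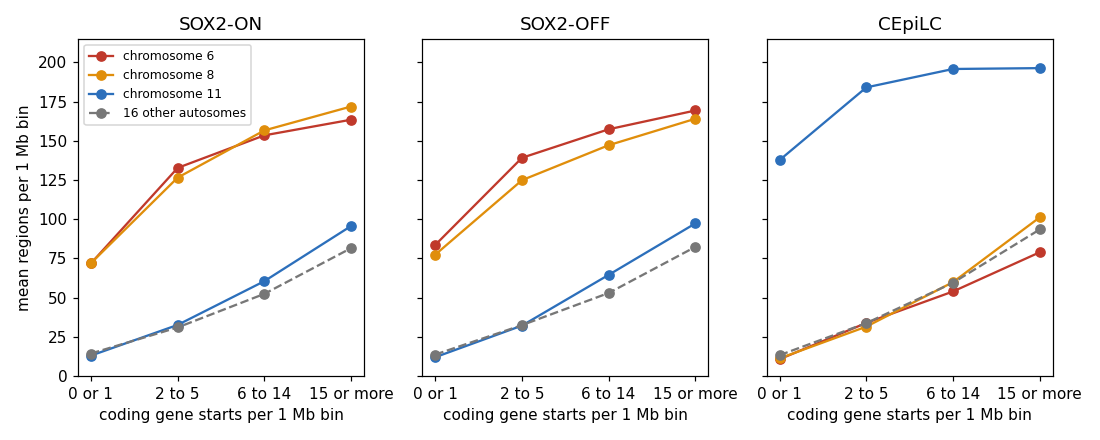
Mean number of peaks of each list per 1 Mb bin (vertical axis, where regions stands for these peaks) by the number of coding gene starts in the bin, for SOX2-ON, SOX2-OFF and CEpiLC. Chromosomes 6 and 8 lay above the other autosomes in the engineered line and beside them in CEpiLC, and chromosome 11 in CEpiLC ran from 138 in gene-poor to 196 in gene-rich bins.

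The difference was spread over the whole length of each chromosome. In SOX2-ON 144 of 146 bins of chromosome 6 lay above the median of bins of like gene density on the other autosomes, and in SOX2-OFF 146 of 146 did. On chromosome 8 it was 125 of 126 in both. On chromosome 11 it was 119 of 119 in CEpiLC, but 72 in SOX2-ON and 62 in SOX2-OFF. In 10 Mb windows the ratio of SOX2-ON to CEpiLC peaks ran from 2.03 to 5.17 on chromosome 6 (15 windows), from 1.68 to 4.81 on chromosome 8 (13 windows) and from 0.136 to 0.485 on chromosome 11 (12 windows). In the 205 windows of the other autosomes it ran from 0.691 to 1.32, without overlap with any of the 3 chromosomes. Between SOX2-ON and SOX2-OFF it ran from 0.739 to 1.21 on the 3 chromosomes, inside the range of 0.591 to 1.30 elsewhere.

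Clusters of gene families used in other tissues gave a view of chromatin in which active promoters are not expected in these cells. On chromosome 11, the 104 olfactory receptor genes (Olfr) and 5 kb on either side held 290 CEpiLC regions but 32 of SOX2-ON and 30 of SOX2-OFF, or 185, 20.5 and 19.2 per Mb. The 23 keratin-associated protein genes (Krtap), which encode hair proteins, held 165 per Mb in CEpiLC and 23.6 in each state of the engineered line.

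On chromosome 6 the order was the other way round. The 51 vomeronasal receptor genes (Vmn1r) held 8.44 regions per Mb in CEpiLC, 87.6 in SOX2-ON and 145 in SOX2-OFF. The 160 immunoglobulin kappa variable genes (Igkv) held, in the same order, 18.8, 90.2 and 163 per Mb, the 38 bitter taste receptor genes (Tas2r) 24.8, 102 and 174, and the 28 killer cell lectin-like receptor genes (Klr) 28.9, 94.0 and 152. In all 4 families of chromosome 6 SOX2-OFF held more regions than SOX2-ON. On chromosome 8 the 24 beta-defensin genes (Defb) held 9.56 per Mb in CEpiLC, 124 in SOX2-ON and 118 in SOX2-OFF, and the 22 alpha-defensin genes (Defa) held 1, 6 and 8 regions. Near-identical copies within these families can share reads, so single sites in them are uncertain.

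Sequence was read in the central 200 bases, which the choice of chromosomes did not use. The median G or C content of the engineered-line class was 46.5% on chromosome 6 and 47.5% on chromosome 8, against 49.5% for the same class on the other autosomes. For CEpiLC-only regions of chromosome 11 it was 47.5% against 50.5%. Regions covered by all lists had 50.5%, 51.5% and 53.5%, and windows set every 10 kb along the chromosomes, without regard to peaks, had 41.0%, 42.0% and 44.0%. The surplus classes thus lay between unselected sequence and shared regions.

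The CTCF core, searched on both strands like all motifs here, occurred in 74 of 7525 engineered-line regions on chromosome 6 (0.983%, 0.784 to 1.23) and in 55 of 5675 on chromosome 8 (0.969%, 0.745 to 1.26), against 3.64% (3.27 to 4.03) in the same class elsewhere. CEpiLC-only regions of chromosome 11 held it in 0.566% (0.456 to 0.703), against 1.17% (1.06 to 1.30). Of all regions of the other autosomes 2.17% held it, and of the unselected windows 0.476%. The GC box GGGCGG, bound by SP and KLF factors, was found in 3.00% and 3.30% of the engineered-line class against 8.85% elsewhere, and in 8.94% of all regions of the other autosomes. Both strings are rich in G and C, and a match is a description, not a bound site.

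The share with a SOX core was higher in strong than in weak regions of the SOX2-ON-only class. In that class, the SOX core CATTGT, read by SOX2 and its relatives, occurred in 24.5% (89 of 363, 20.4 to 29.2) of the strong ones on chromosome 6, 23.9% (79 of 331) on chromosome 8 and 24.6% (49 of 199) on chromosome 11, against 25.5% on the other autosomes. Among the weakest SOX2-ON-only regions it was 12.2% (11.3 to 13.2), 11.9%, 10.9% and 13.3% in the same order, near the 10.5% of all regions of the other autosomes and the 12.4% of their unselected windows. The GATA letters AGATAA occurred in 18.5%, 19.9% and 26.6% of the strong regions, against 23.7% elsewhere, and in 10.7%, 10.1% and 8.28% of the weakest, against 9.67%. Other classes differed in whether they shared this order. On the other autosomes, the weak and the strong regions held the core in 9.67% and 7.46% where all lists covered them and in 9.74% and 8.23% where SOX2-OFF alone did, and CEpiLC-only regions of chromosome 11 in 10.8% and 7.84%. The engineered-line class shared the order. From weak to strong, its share with the SOX core was 10.9% and 15.1% on chromosome 6. It was 10.0% and 13.4% on chromosome 8, and 8.75% and 13.3% elsewhere. Regions of SOX2-ON and CEpiLC also shared it, with 9.22% and 18.7% on the other autosomes and 10.3% and 20.1% on chromosome 11.

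Position in genes followed the classes as well. Of the engineered-line class, 17.0% on chromosome 6 and 17.4% on chromosome 8 touched an exon and 45.4% and 42.8% lay outside genes, against 20.4% and 41.3% for the class elsewhere. Of regions covered by all lists, 37.3%, 41.5% and 49.4% touched an exon. Of CEpiLC-only regions on chromosome 11, 12.4% touched an exon and 46.3% were intergenic, against 15.9% and 39.6%.

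Read pileup at promoters gave a measure that does not count regions. From the authors' fold enrichment and −log10 p the number of fragments piled over each peak and its local background were solved, and each was divided by the median of the same list over the 16 other autosomes. Only promoters covered by all lists and near 1 coding gene were used, 826 on chromosome 6, 791 on chromosome 8 and 1138 on chromosome 11, so a promoter missed by a list is not included.

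In SOX2-ON the median promoter pileup was 1.16 (1.07 to 1.34) times the reference on chromosome 6, 1.49 (1.37 to 1.63) on chromosome 8 and 1.08 (1.01 to 1.16) on chromosome 11. In SOX2-OFF it was 1.28 (1.19 to 1.36), 1.41 (1.34 to 1.52) and 1.03 (0.986 to 1.06). In CEpiLC it was 0.915 (0.880 to 0.955), 0.968 (0.939 to 1.00) and 1.53 (1.49 to 1.57). Single chromosomes among the other 16 ran from 0.897 to 1.12 in SOX2-ON, 0.952 to 1.10 in SOX2-OFF and 0.955 to 1.07 in CEpiLC. The X chromosome, present in a single copy in an XY line, lay at 0.653, 0.655 and 0.660. At this distance of 1 kb, chromosomes 6 and 8 lay above every other autosome in the engineered line, as did chromosome 11 in CEpiLC, and chromosome 6 in CEpiLC lay below all 16. With promoters within 5 kb, chromosome 6 in SOX2-ON was at 1.13 and no longer above the highest other autosome, at 1.17. For chromosome 6 the intervals at 1 kb in SOX2-ON and in CEpiLC reached into the range of the others.

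The local background at these promoters moved with the pileup. It was 1.32 and 1.57 times the reference on chromosomes 6 and 8 in SOX2-ON, 1.32 and 1.5 in SOX2-OFF, and 1.66 on chromosome 11 in CEpiLC. The authors' fold enrichment, which divides one by the other, was therefore not raised. Its median was 0.931 and 0.924 times the reference in SOX2-ON, 0.963 and 0.949 in SOX2-OFF and 0.915 in CEpiLC on chromosome 11. Single other autosomes had at least 0.909, 0.917 and 0.931, so chromosome 11 in CEpiLC alone lay below them. Reads over these chromosomes were thus more numerous at promoters and around them alike, and the peaks did not stand out further from their surroundings.

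At called regions far from genes the shift in pileup was smaller or absent in the engineered line, but the local background was still raised. At shared regions over 100 kb from a coding start, chromosomes 6 and 8 were at 0.984 and 1.04 in SOX2-ON, within the range of the other autosomes, which reached 1.06. In SOX2-OFF they were at 1.03 and 1.07, where the others reached 1.05. Chromosome 11 in CEpiLC was still at 1.33 (1.29 to 1.38), above a highest other value of 1.06. The background on chromosomes 6 and 8 was 1.07 and 1.10 in SOX2-ON and 1.08 and 1.10 in SOX2-OFF, where the others reached 1.01. Fold enrichment there was 0.914 and 0.924 in SOX2-ON and 0.932 and 0.934 in SOX2-OFF. The lowest other autosomes had 0.961 and 0.954. In SOX2-ON the reference background of these regions was 38.3 fragments, close to the lowest of any peak, 35.6. The reference pileup was 76.8, against a lowest of 53.0. Values under those levels are not seen in a peak list. These ratios therefore do not show whether the excess of reads faded away from genes.

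**Figure D5:**
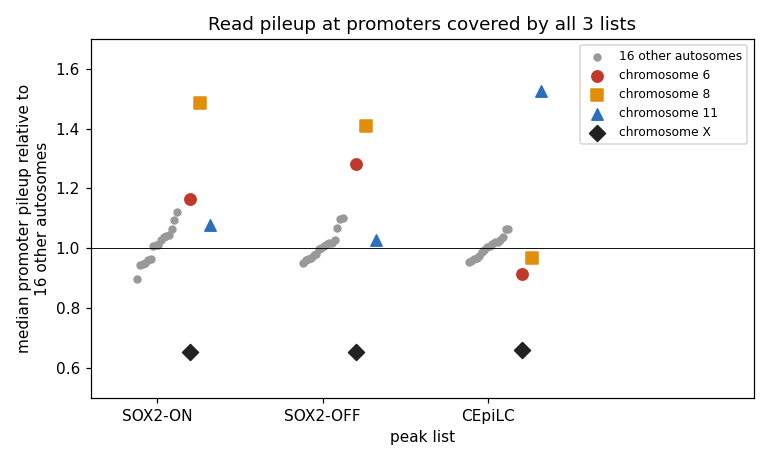
Median pileup at promoters covered by all 3 lists, relative to the 16 other autosomes (vertical axis), for each chromosome and peak list. Chromosome 8 (1.49 and 1.41) and chromosome 6 (1.16 and 1.28) lay above the grey points of the other autosomes in SOX2-ON and SOX2-OFF, chromosome 11 (1.53) did in CEpiLC, and X lay near 0.65 to 0.66 in all.

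Weak peaks lay close to the lowest level at which a call was made. The lowest background of a peak was 35.6 fragments for SOX2-ON, 43.2 for SOX2-OFF and 26.6 for CEpiLC, the same on each of the 3 chromosomes as on the others, and the lowest pileup was 53.0, 62.0 and 43.0. On the other autosomes 74.6% of weak SOX2-ON peaks, those with −log10 q under 2, had a background within 2% of that floor, against 56.0% on chromosome 6 and 51.6% on chromosome 8. In CEpiLC it was 62.1% on the other autosomes and 28.5% on chromosome 11. Their median pileup was 57.4 and 57.7 on chromosomes 6 and 8 against 56.4 in SOX2-ON, and 50.5 on chromosome 11 against 45.8 in CEpiLC. A region absent from a list was not detectable at that depth, which does not show that it was closed.

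More coding starts were covered where the surplus lay. SOX2-ON covered the start of 917 of 1105 coding genes on chromosome 6 (83.0%) and 919 of 1035 on chromosome 8 (88.8%), SOX2-OFF 85.8% and 88.8%, and CEpiLC 73.6% and 83.4%. On chromosome 11 CEpiLC covered 1508 of 1636 (92.2%), and SOX2-ON and SOX2-OFF 80.9% and 81.0%. On the other autosomes the highest shares of the 3 lists were 85.4%, 85.8% and 85.5%.

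Among regions covered by all lists, pileups were compared between lists after each was divided by its own median over the other autosomes. The median ratio of SOX2-OFF to CEpiLC was 1.25 on chromosome 6, 1.25 on chromosome 8 and 0.711 on chromosome 11, against 0.992 to 1.05 on single other autosomes. For SOX2-ON to CEpiLC it was 1.19, 1.21 and 0.708, against 0.962 to 1.05. Between SOX2-ON and SOX2-OFF it was 1.01, 1.03 and 1.04.

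A difference of 2-fold or more was used as a fixed mark of size. SOX2-OFF exceeded CEpiLC by it at 13.5% of shared regions on chromosome 6 and 15.5% on chromosome 8, against 3.65% of all shared regions. It fell short of CEpiLC by it at 2.78% on chromosome 11, against 0.282% of all. For SOX2-ON the shares were 18.4%, 21.2% and 7.36%, against 15.2% higher and 0.821% lower of all. On the 16 other autosomes alone, SOX2-OFF was higher at 1.89% and lower at 0.0823%. SOX2-ON was higher there at 15.2% and lower at 0.316%. SOX2-ON exceeded SOX2-OFF by it at 2.37%, 2.22% and 2.35%, against 2.54% of all, and fell short at 1.28%, 0.947% and 0.604%, against 0.832%.

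Genes on these chromosomes were read against their own chromosome. For each listed gene the ratio of promoter pileups between lists was ranked among the single-gene promoters of the same chromosome, so that a percentile of 50 is the chromosome's own middle. Ranks were not matched for promoter strength, and on the other autosomes the ratio of SOX2-ON to CEpiLC was higher at strong regions. Its median there was 1.01 at all shared regions and 1.44 where the −log10 q was at least 5 in every list. The part of strength in the ranks below was not tested. The promoter medians of the 3 chromosomes were shifted as well. The ratio of SOX2-ON to CEpiLC was 2.24 on chromosome 6, 2.59 on chromosome 8 and 1.2 on chromosome 11, against 1.60 to 1.82 on single other autosomes, and SOX2-OFF to CEpiLC was 1.97, 2.09 and 0.954, against 1.37 to 1.46.

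Starts were covered in every list for 7 of 7 pluripotency genes, 13 of 13 WNT pathway genes, 10 of 10 housekeeping genes, 32 of 34 caudal and mesoderm genes and 9 of 10 neural genes. The start of Meox1, a somite gene, was covered in no list, that of Hes7, a gene of the segmentation clock, in CEpiLC only, and that of Neurod6 in SOX2-ON only. The markers Pou5f1, Sox2, Fgf5, T, Cdx2 and Nkx1-2, which lie on other chromosomes, were covered in all lists, and so were 5 of 5 starts of the feeder fibroblast genes Col1a1, Col1a2, Mmp2, Cdh11 and Gas6. Coverage of a start thus did not tell cell types apart, and fewer cells of a type cannot be told apart from lower accessibility per cell. For the 5 fibroblast genes the ratio of SOX2-ON to CEpiLC ran from 1.21 to 2.67, above the chromosome median at 2 of 5. Their relative pileups spanned 1.86 to 4.62 with SOX2-ON, 2.38 to 3.29 with SOX2-OFF and 1.45 to 3.01 in the wild type, and the part of such cells in the results was not tested.

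Pluripotency genes lay above the middle of their own chromosome for SOX2-ON to CEpiLC, some of them only slightly. All 7 did so, from percentile 56.4 (Nanog), 59.7 (Socs3) and 60.4 (Zfp42) to 88.1 (Gdf3). For SOX2-ON to SOX2-OFF 6 of 7 did. Gdf3, a TGF-beta family ligand of pluripotent cells, had a relative pileup of 3.31 with SOX2-ON, 1.43 with SOX2-OFF and 0.819 in the wild type, and its ratio of SOX2-ON to SOX2-OFF of 2.32 lay at percentile 99.4 of chromosome 6. Dppa3, a germline and naive pluripotency gene beside it, had 2.38, 1.31 and 0.738 (ratio 1.82, percentile 97.5). Nanog, a core pluripotency factor at chr6:122707489-122714633, had 3.17, 2.73 and 1.30, and its ratio of SOX2-ON to SOX2-OFF of 1.16 lay at percentile 48.5. On chromosome 8, Klf2 had 7.66, 4.82 and 2.35 (ratio 1.59, percentile 84.3), and Zfp42 had 4.61, 3.01 and 1.53.

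Caudal and mesoderm genes lay mostly on the other side. For SOX2-ON to CEpiLC 7 of 32 lay above their chromosome median, and for SOX2-OFF to CEpiLC 5 of 32. On chromosome 11 the first Hoxb gene, Hoxb1 (chr11:96365752-96368256), an early marker of the posterior epiblast, had a relative pileup of 0.830 with SOX2-ON, 2.43 with SOX2-OFF and 2.85 in the wild type. Its ratio of SOX2-ON to SOX2-OFF of 0.342 was among the lowest of the 1138 promoters of the chromosome (percentile 0.0879). Hand1, a lateral mesoderm factor, had 1.07, 1.72 and 2.38 (ratio 0.618), and Hoxb6 had 0.989, 1.37 and 2.01 (ratio 0.721). Hoxb7 and Hoxb8 shared 1 region.

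The Hoxa cluster on chromosome 6 gave 12 of 12 ratios of SOX2-ON to CEpiLC above 1, counting its neighbour Evx1, whereas 4 of 12 exceeded the chromosome median. Evx1, a primitive streak homeobox gene, had 2.37, 4.47 and 2.25 with SOX2-ON, with SOX2-OFF and in the wild type. Its ratio of SOX2-ON to SOX2-OFF of 0.530 was among the lowest on chromosome 6 (percentile 0.121). Hoxa2 had 1.28, 1.61 and 1.25 (ratio 0.794), and Hoxa13, at the far end of the cluster, had 5.62, 3.74 and 1.48 (ratio 1.5). For 8 of these 12 genes the raw ratio to CEpiLC lay above 1 and the rank below the chromosome's middle. The ratio was scaled to all shared regions, and at promoters of the other autosomes its median was 1.69. A value above 1 is thus not high for a promoter, and this disagreement is not particular to chromosome 6.

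Among WNT pathway genes 8 of 13 lay above the chromosome median for SOX2-ON to CEpiLC and 6 of 13 for SOX2-ON to SOX2-OFF. Nkd1, a feedback inhibitor of WNT signalling on chromosome 8, had relative pileups of 11.2, 7.17 and 2.74 in SOX2-ON, SOX2-OFF and CEpiLC, and Axin2, another feedback inhibitor on chromosome 11, had 8.12, 5.79 and 4.61. Among neural genes 6 of 9 lay above it for SOX2-ON to CEpiLC. Irx5, a homeobox gene on chromosome 8, had 14.6, 8.75 and 2.85 and lay at percentile 96.7. Of the housekeeping genes 8 of 10 were above it, with Ubb on chromosome 11 at 11.1, 6.43 and 4.21 (percentile 99.2), so a high rank was not limited to genes of cell identity.

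The strongest regions by class gave single examples. The top region covered by all lists on chromosome 6, at chr6:113075980-113077751, spanned the start of Setd5 and of the Rosa26 transcript. By the paper's account this locus holds rtTA in the engineered line and in the parent line used as wild-type control. The relative pileup of the region was 34.4 with SOX2-ON, 20.6 with SOX2-OFF and 7.19 in the wild type. Whether the inserted cassette contributed reads in any of them was not tested. On chromosome 8 the top one, chr8:19783976-19785337, touched an exon of Gm10060 and had 32.1, 26.3 and 12.1. It lay beside a 1 Mb bin, from 20 Mb, crowded with strong calls in every list. There 132 of 163 SOX2-ON, 115 of 146 SOX2-OFF and 124 of 144 CEpiLC peaks had a −log10 q of at least 5. Medians over chromosome 8 bins of like gene density were 27.5, 26.5 and 12. The part of this stretch in the strong counts of chromosome 8 was not tested. On chromosome 11 it was the start of Fxr2, an RNA-binding protein gene, at chr11:69632432-69633534, with 15.6, 8.36 and 5.72.

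The top engineered-line region of chromosome 6, chr6:134950799-134952130, lay on an exon of the noncoding gene Lockd, 25286 bp from Cdkn1b, a cell cycle inhibitor. It had 7.81 in SOX2-ON and 0.936 in SOX2-OFF, and its central 200 bases, printed above, held a SOX core and GATA letters. That of chromosome 8, chr8:100886674-100888497, lay 1470203 bp from the nearest coding gene, Cdh8, with 6.05 and 0.634, and held the octamer ATGCAAAT, the letters read by OCT4, and GATA letters. Their −log10 q was 246 and 182 in SOX2-ON and 4.58 and 2.57 in SOX2-OFF, where the median peak of the same chromosomes had 2.06 and 2.05. The octamer occurred in 1.30% and 1.55% of the engineered-line class on the 2 chromosomes and in 1.32% of all regions of the other autosomes.

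Not all strong calls looked like promoters or enhancers. A region of 166 bp at chr6:49236451-49236616, 7308 bp from Tra2a, had a fold enrichment of 21.1 in SOX2-ON and 15 in CEpiLC and was missing from SOX2-OFF. The top CEpiLC-only region of chromosome 11, chr11:60638230-60638383, was 154 bp wide with 78.0% of its central 200 bases marked as repeats, and the top region of SOX2-ON and SOX2-OFF there, chr11:106031994-106032363 in Kcnh6, was 100% repeat. The other CEpiLC-only examples, in Gm10444 on chromosome 6 and on an exon of Crtc1 on chromosome 8, had no repeat bases and fold enrichments of 2.08 and 2.46.

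Sorting all members by these measures left 4 groups. Regions within 1 kb of a coding start numbered 4342 (5.93%), and regions elsewhere with a −log10 q of 5 or more in a list numbered 9933 (13.6%). A further 4285 (5.85%) were weak but covered by all lists. The remaining 54632 (74.6%, 74.3 to 75) lay away from starts, stayed under 5 in every list and were missing from at least 1 list. On the other autosomes the shares were 10.8%, 23.8%, 7.49% and 57.8%. Per Mb, the first 3 groups were 1.43, 1.48 and 2.04 times as dense as on the other autosomes and the last 3.36 times. The CTCF core was found in 2.58%, 2.76%, 1.63% and 0.655% of them in turn.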

How the data were processed

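ATAC–seq of 3 samples was used, 1 each of SOX2-ON, SOX2-OFF and CEpiLC, grouped by the labelled treatment and genotype. The authors processed reads with nf-core/atacseq, which aligned them to mm10, discarded mitochondrial reads and gave broad MACS2 peaks (MACS2 and mm10 are also named in the submitters' processing notes). One list per sample was deposited. Cut-site shifting and any control library are not given in the sources used here, so peak edges are approximate. For each peak the authors deposited the fold enrichment, a ratio of pileup to local background. Its −log10 p and −log10 q, also deposited, come from the same caller and grow with depth. The deposited score was 10 times the −log10 q and was not used.

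Lists were merged with bedtools 2.31.1, and a region was covered by a list if any of its peaks overlapped it. Gene positions (coding starts, exons) were those of GENCODE M21. Densities used non-N sequence, and the reference was the median of the 16 autosomes other than 6, 8 and 11. Bins of 1 Mb with at least 50% non-N sequence were kept, and the peaks of each list were counted in them by midpoint. Background and pileup were solved for each peak under the Poisson model of MACS2, a step checked on simulated data; since broad peaks carry averaged values, both are approximate. A region takes its strongest peak. Read totals were not used. The 6 motifs were searched in the central 200 bases of RefSeq's GRCm38.p6 sequence. Shares have Wilson, counts exact Poisson and medians order-statistic intervals at 95%, for counting error only, since PCR reads are not independent molecules.

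Named regions were the one with the highest −log10 p in each of the 7 classes on each chromosome (21 in all), from which examples were taken, and those at starts of listed genes. The members, lists and comparisons were chosen with earlier results of these data known. Alternatives changed the merging gap, the q threshold, the distances, the bins, the reference and the pileup measure. No p-value was computed.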

Additional observations from a re-analysis of the deposited data

How the results depend on the processing

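No paired analysis was possible because there was 1 sample per group, and for the same reason no replicate could be left out. The class shares moved most with strength. The share of chromosome 6 regions covered by SOX2-ON and SOX2-OFF was 30.3% when peaks up to 500 bp apart were merged, 21.6% at a −log10 q of at least 2, 25.3% at 5, 14.7% among the strongest 50000 peaks of each list and 28.4% when a list had to cover 10% of a region. On chromosome 8 it was 28.1%, 20.9%, 22.2% and 12.8% under the first 4. The median of the other autosomes, 6.39% at first, was 6.78%, 9.05%, 13.9%, 6.19% and 6.49% under these 5 settings. The CEpiLC-only share of chromosome 11 was 44.6% at 2, 7.10% at 5 and 39.4% among the strongest 50000, where the other autosomes had medians of 10.7%, 1.89% and 11.8%.

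The ratio near coding starts for SOX2-ON on chromosomes 6 and 8 and CEpiLC on chromosome 11 was 1.57, 1.43 and 1.48 within 5 kb, and 1.01, 1.09 and 1.07 at a −log10 q of at least 5. The ratio far from starts was 4.77, 4.56 and 7.65 beyond 50 kb, and 1.91, 1.81 and 3.26 at 5. In gene-poor bins it was 1.76, 1.56 and 2.80 at 5, and with 500 kb bins 4.74 on chromosome 8 and 8.47 on chromosome 11. CEpiLC on chromosome 8 changed sides far from starts, from 0.915 to 1.2 at 5. The bin at 20 Mb of chromosome 8, crowded with strong calls, was not set aside.

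The promoter pileup ratio fell below 1 with fold enrichment in its place, to 0.931, 0.924 and 0.915, and for SOX2-OFF to 0.963 and 0.949 on chromosomes 6 and 8, since fold enrichment divides by a background that moved as well. At shared regions over 5 kb from a start it was 1.07, 1.13 and 1.43, and 0.969 for SOX2-ON on chromosome 11. Within 5 kb it was 1.13, 1.34 and 1.48, and chromosome 6 in SOX2-ON then lay below the highest other autosome (1.17). The shares of shared regions where SOX2-OFF was higher than CEpiLC on chromosomes 6 and 8 and lower on 11 were 32.6%, 32.7% and 39.0% at 1.5-fold, and 41.6%, 41.7% and 0.662% with a −log10 q of at least 5 in every list. Over all shared regions 17.1% were higher and 3.99% lower at 1.5-fold, and 7.97% and 0.0925% at 5. Over whole regions the median G or C content was 46.3%, 46.9% and 47.6%. The causes of these shifts were not tested beyond the construction of each setting.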
